A study of Mus musculus with 13 samples.

Results

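The Wnt ligands described here are 9 secreted signalling proteins, Wnt2, Wnt2b, Wnt4, Wnt5a, Wnt6, Wnt7b, Wnt9b, Wnt10a and Wnt11, whose transcripts were measured on Affymetrix MOE430 arrays in embryonic mouse bladder, urethra and urogenital sinus. A member is a gene with at least 1 probe set (a group of short oligonucleotide probes) annotated to its symbol alone, and the probe set with the highest mean over the 13 arrays stands for the gene. All 9 members had such a probe set, 16 in all, and all 9 were among the 15019 genes tested. The bladder (3 arrays, replicates 2, 6 and 8) and the urethra (3 arrays, replicates 1, 2 and 6) were dissected as fluorescent regions, and the urogenital sinus (4 arrays, replicates 1, 2, 6 and 7) as the dark region between them. All 3 regions came from embryos at embryonic day 14, of unknown sex, from FVB/N females mated to males carrying the SMGA/EGFP transgene, in which the promoter of Actg2 (smooth muscle gamma-actin) drives the fluorescent protein EGFP. The same transgene is thus shared by all 3 regions, and the fluorescence that guided the dissection marks smooth muscle. The region samples were not pooled. The newborn reference (3 arrays) is RNA from wild-type FVB/N whole mice at postnatal day 1, pooled from 4 males and 4 females as a common standard, so it repeats 1 kind of pooled RNA and is no matched control organ. The region arrays numbered 6, 7 and 8 were staged as Theiler stage 22, and those numbered 1 and 2 as stage 21.

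Wnt proteins are lipid-modified ligands that act over short distances between tissue layers. They bind Frizzled receptors, and together with Lrp5 or Lrp6 stabilise beta-catenin, which activates TCF and LEF transcription factors in the nucleus; some, above all Wnt5a, signal through Ror2 and related receptors without beta-catenin, in pathways that orient cells and shape tissue. In the urogenital tract Wnt ligands are known for patterning the kidney, the ducts of the reproductive tract and the genital tubercle.

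Promoter sequences are shown for Wnt2, whose mean signal was highest in the bladder, and for Wnt6 and Wnt11, whose signal on every bladder array was below that on every urogenital sinus array. The RefSeq promoter table for GRCm38.p6 has entries for 6 of the 9 members, with 7 start sites, and each sequence below is the 250 bases before a start, 5′ to 3′ on the gene's own strand. Capitals mark matches to GATAA, a core bound by GATA factors, or to CTTTGAT, a core bound by TCF and LEF factors, which were searched on both strands and cannot overlap each other in these 3 windows. These motifs were chosen after the signal values were known.
Wnt2, chr6:18030446-18030695, minus strand: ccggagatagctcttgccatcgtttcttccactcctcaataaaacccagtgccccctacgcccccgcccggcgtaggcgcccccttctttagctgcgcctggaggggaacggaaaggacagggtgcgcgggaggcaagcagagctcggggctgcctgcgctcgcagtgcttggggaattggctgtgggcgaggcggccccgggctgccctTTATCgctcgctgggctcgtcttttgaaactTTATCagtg
Wnt6, chr1:74771642-74771891, plus strand: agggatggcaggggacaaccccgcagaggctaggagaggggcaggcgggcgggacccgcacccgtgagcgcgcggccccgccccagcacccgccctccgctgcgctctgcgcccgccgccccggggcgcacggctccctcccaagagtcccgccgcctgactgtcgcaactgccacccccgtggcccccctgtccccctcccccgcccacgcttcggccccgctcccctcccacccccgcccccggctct
Wnt11, first start, chr7:98834862-98835111, plus strand: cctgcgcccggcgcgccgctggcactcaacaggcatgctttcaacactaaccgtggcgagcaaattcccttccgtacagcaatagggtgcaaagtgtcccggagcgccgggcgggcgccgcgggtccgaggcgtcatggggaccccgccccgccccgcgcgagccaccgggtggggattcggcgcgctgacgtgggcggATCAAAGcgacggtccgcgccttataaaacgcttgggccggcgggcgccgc

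The Wnt2 window holds 2 matches to GATAA, both on the opposite strand (printed as TTATC), at -40 to -36 and at -9 to -5 from the start. Of all 32851 promoter windows of this length, 22.58% hold at least 1 such match and 4.28% hold 2 or more. The first Wnt11 window holds 1 match to CTTTGAT, on the opposite strand at -51 to -45, and 3.21% of all windows hold at least 1. The Wnt6 window holds neither, and the windows of Wnt2b, Wnt4, Wnt9b and the second Wnt11 start hold neither as well. The share of G and C was 63.6% for Wnt2, 79.6% for Wnt6 and 70.8% for the first Wnt11 start, against a median of 52.4% over the table. A match is a run of letters in this window, and no factor binding was measured here.

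Values below are log2 signal intensities, in which 1 unit is a doubling, and no probe set's level is set against that of another gene. Intensities were floored at 5.65, and a gene counted as above the filter on an array when its log2 intensity exceeded 7.39. Wnt2, Wnt4, Wnt5a, Wnt6, Wnt7b and Wnt11 were above the filter on all 13 arrays, Wnt10a on 11, Wnt9b on 7 and Wnt2b on 4. A gene is called changed when its adjusted p is under 0.05 in limma, with p adjusted over all 15019 genes by the Benjamini-Hochberg method. Every adjusted p below is from these limma fits. Nothing in the labels tells whether each array came from its own embryo; the p-values therefore measure spread between arrays, which may be partly technical.

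**Figure D1:**
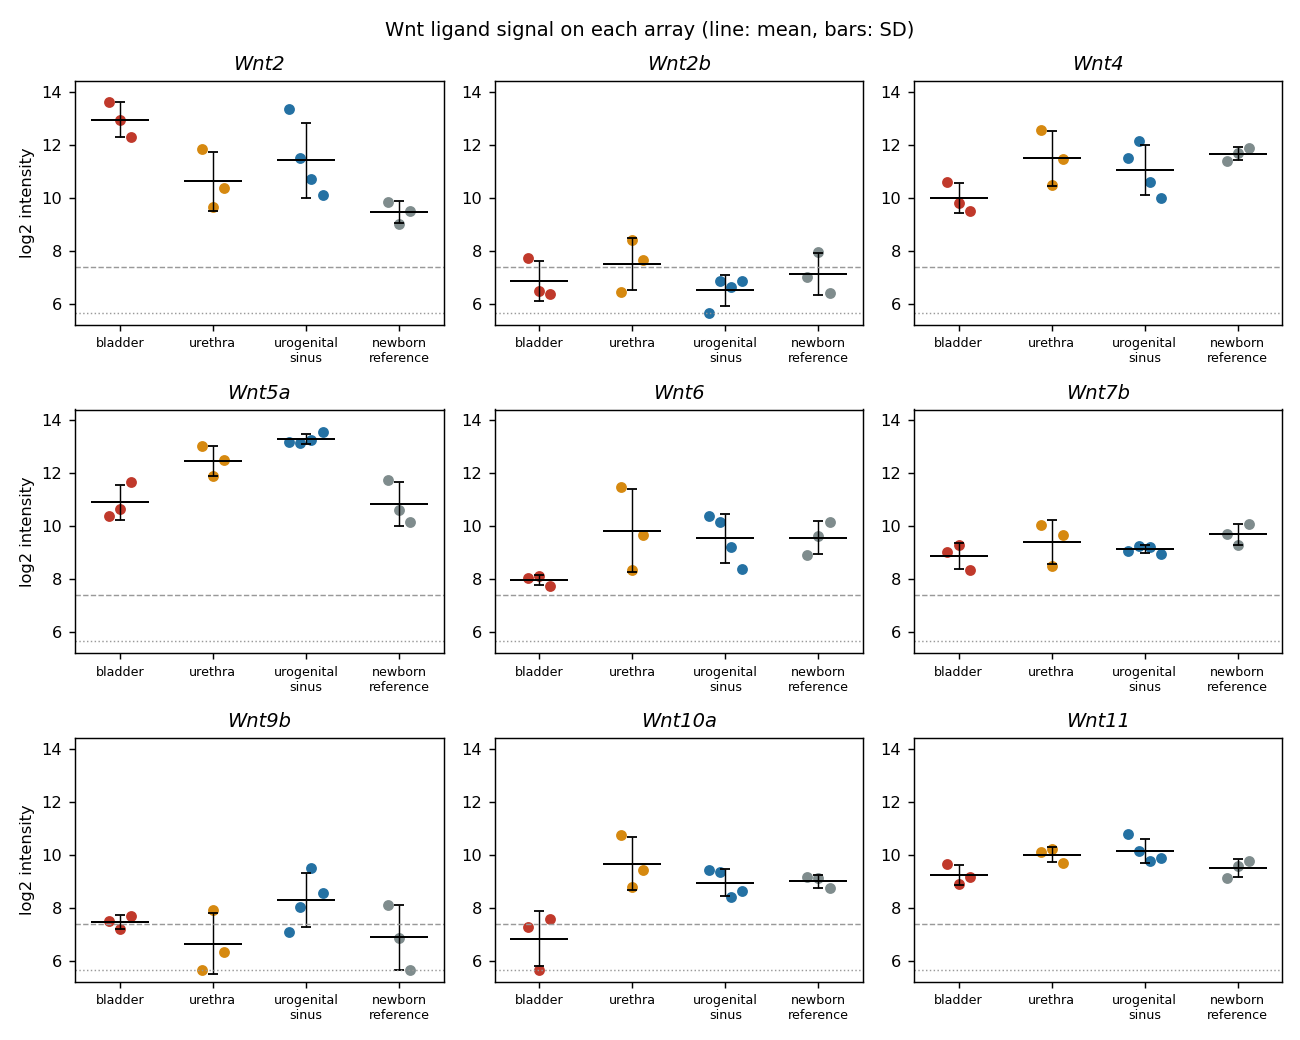
Log2 intensity (y axis) of each of the 9 Wnt ligands on each array, in bladder, urethra, urogenital sinus and newborn reference (x axis); points are arrays, the horizontal line is the group mean, bars are SD, the dotted line is the floor at 5.65 and the dashed line the filter at 7.39. The 4 urogenital sinus arrays of Wnt5a lie between 13.12 and 13.56, above every array of the other groups, and the 3 bladder arrays of Wnt10a lie at or below 7.56.

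Wnt5a, which drives outgrowth of limbs, face and genital tubercle, was lower in the bladder than in the urethra and in the urogenital sinus. Wnt5a measured 10.39, 10.64 and 11.65 on bladder replicates 2, 6 and 8. It was 13.02, 11.89 and 12.50 on urethra replicates 1, 2 and 6, and 13.17, 13.12, 13.27 and 13.56 on urogenital sinus replicates 1, 2, 6 and 7. The highest bladder array lay below the lowest urethra array, and the highest urethra array lay below the lowest sinus array. Thus no 2 regions overlapped on the probe set used, 1436791_at, unlike on the other Wnt5a probe sets, given below. The urogenital sinus arrays were the tightest of the 3 sets, at 13.28 ± 0.19 (SD, n = 4), beside 10.89 ± 0.67 in the bladder and 12.47 ± 0.56 in the urethra (SD, n = 3 each).

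Wnt5a fell in the bladder relative to the urogenital sinus by 2.39 on the log2 scale (SE 0.35, 95% interval -3.16 to -1.61, 5.23-fold, adjusted p = 0.0115). It also fell in the bladder relative to the urethra by 1.57 (SE 0.37, 2.98-fold, adjusted p = 0.0467). Urethra minus sinus was -0.81 (SE 0.35, 95% interval -1.59 to -0.04) and was not called, with an adjusted p of 0.467. Against the sinus the call ended without bladder replicate 2 (-2.13, adjusted p = 0.0642), without bladder replicate 6 (-2.26, 0.0705) and with arrays centred on their medians (-1.80, 0.159), a scaling that moves the median of all genes in this comparison to 0.38, from -0.19 as deposited. The call against the urethra is near its threshold: it held in 2 of the 10 fits that leave out 1 array (without bladder replicate 8 or sinus replicate 1), with -1.45 and an adjusted p of 0.170 without bladder replicate 6, and it was lost under quantile normalization (-1.49, 0.0585), median centring (-1.10, 0.362) and without the filter (0.0684), with the number in the title as a replicate block (-1.82, 0.0590), and, at the same difference, with a floor at the 40th percentile (0.0595), without the intensity trend (0.0531) and in a fit of only these regions (0.0855).

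Wnt10a, a ligand of skin, teeth and hair, was lowest in the bladder. Wnt10a measured 7.28, 5.65 and 7.56 on bladder replicates 2, 6 and 8, with replicate 6 at the floor and 1 of the 3 arrays above the filter. It was 10.74, 8.79 and 9.43 on urethra replicates 1, 2 and 6, and 9.41, 9.34, 8.40 and 8.61 on sinus replicates 1, 2, 6 and 7. The bladder arrays lay below every urethra and every sinus array, whereas the urethra and sinus arrays overlapped.

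Wnt10a fell in the bladder relative to the urethra by 2.82 (SE 0.63, 95% interval -4.24 to -1.41, 7.09-fold, adjusted p = 0.0390). Bladder minus sinus was -2.11 (SE 0.59, 95% interval -3.44 to -0.79) and was not called, with an adjusted p of 0.102. Urethra minus sinus was 0.71 (95% interval -0.61 to 2.03, adjusted p = 0.714). The call against the urethra held in 2 of the 10 fits that leave out 1 array (without sinus replicate 1 or 7), with -2.24 and an adjusted p of 0.141 without bladder replicate 6, and it was lost under quantile normalization (-2.24, 0.137), median centring (-2.42, 0.163), the replicate block (-2.83, 0.0983), no filter (0.0649) and a fit of only these regions (0.0726). Against the sinus it was called with array weights (-2.11, adjusted p = 0.00999). With 1 bladder array at the floor, a floor at the 40th percentile gave -2.21 (adjusted p = 0.0479).

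Wnt6, known from embryonic ectoderm and other epithelia, lies beside Wnt10a on chromosome 1, with 0 protein-coding genes between them in the RefSeq gene table. Wnt6 measured 8.04, 8.11 and 7.75 on bladder replicates 2, 6 and 8. It was 11.49, 8.34 and 9.66 on urethra replicates 1, 2 and 6, and 10.39, 10.17, 9.21 and 8.39 on sinus replicates 1, 2, 6 and 7. The bladder arrays were close together and below all 7 others, while the urethra arrays covered the whole sinus range. Bladder minus urethra was -1.87 (SE 0.76, adjusted p = 0.177) and bladder minus sinus -1.57 (SE 0.71, adjusted p = 0.296), and neither was called.

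Wnt2, a ligand of mesoderm that acts with Wnt2b in the outgrowth of the lung, had its highest mean in the bladder. Wnt2 measured 13.61, 12.92 and 12.28 on bladder replicates 2, 6 and 8. It was 11.82, 9.64 and 10.37 on urethra replicates 1, 2 and 6, and 13.35, 11.49, 10.70 and 10.08 on sinus replicates 1, 2, 6 and 7. Every bladder array lay above every urethra array, but sinus replicate 1 lay within the bladder range while the other 3 sinus arrays lay below it.

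Bladder minus urethra was 2.33 for Wnt2 (SE 0.82, 95% interval 0.50 to 4.15, 5.01-fold, adjusted p = 0.131) and bladder minus sinus 1.53 (SE 0.76, 95% interval -0.18 to 3.24, adjusted p = 0.337), so neither was called. Urethra minus sinus was -0.80 (95% interval -2.50 to 0.91, adjusted p = 0.755). Sinus replicate 1 decides part of this result: without it the bladder against urethra difference, still 2.33, was called with an adjusted p of 0.0495. Without both arrays numbered 1, a setting added after seeing the data, Wnt2 was called higher in the bladder than in the sinus (2.18, adjusted p = 0.0437) and than in the urethra (2.93, adjusted p = 0.0303). It was also called with array weights against both (2.23, adjusted p = 0.00418, and 2.56, 0.0171) and with the replicate block against the urethra (3.33, adjusted p = 0.0427). Those 2 arrays also had the highest mean log2 intensity over 5 red blood cell markers, 12.53 on urethra replicate 1 and 12.72 on sinus replicate 1, whereas the remaining 8 region arrays ranged from 9.43 to 11.34, and the part of blood in the Wnt2 values was not tested.

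Wnt2b, the closest relative of Wnt2, had low signal, under the filter on all 4 sinus arrays. Wnt2b measured 7.71, 6.49 and 6.36 on bladder replicates 2, 6 and 8. It was 6.45, 8.38 and 7.65 on urethra replicates 1, 2 and 6, and 5.65, 6.85, 6.62 and 6.87 on sinus replicates 1, 2, 6 and 7. The regions overlapped, and 3 of the 10 region arrays were above the filter. Bladder minus urethra was -0.64 (adjusted p = 0.488). Relative to the sinus Wnt2b was at least 1.07-fold higher in the urethra (adjusted p = 0.560), no fold is given for the bladder, whose mean was also under the filter (adjusted p = 0.741), and none of the 3 was called.

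Wnt4, which starts tubule formation in the kidney and is needed for the paramesonephric duct, had 10.60, 9.81 and 9.50 on bladder replicates 2, 6 and 8. It had 12.54, 10.47 and 11.46 on urethra replicates 1, 2 and 6, and 11.48, 12.12, 10.60 and 9.97 on sinus replicates 1, 2, 6 and 7. Bladder replicates 6 and 8 were the lowest of the 10 arrays, but bladder replicate 2 lay within both other regions. Bladder minus urethra was -1.52 (SE 0.64, adjusted p = 0.186), bladder minus sinus -1.07 (SE 0.60, adjusted p = 0.382) and urethra minus sinus 0.44 (SE 0.60, adjusted p = 0.834).

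Wnt7b, a ligand made by epithelia such as those of lung and collecting duct, had the narrowest span of region means among the 9 members, 0.53. Its log2 intensity was 9.01, 9.28 and 8.33 on bladder replicates 2, 6 and 8. It was 10.06, 8.49 and 9.67 on urethra replicates 1, 2 and 6, and 9.07, 9.26, 9.22 and 8.95 on sinus replicates 1, 2, 6 and 7. The regions overlapped in each pair, and adjusted p ranged from 0.465 to 0.850, with bladder minus sinus at -0.25 (95% interval -1.18 to 0.67).

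Wnt9b, which acts upstream of Wnt4 in the kidney, had 7.48, 7.19 and 7.70 on bladder replicates 2, 6 and 8. It had 5.65, 7.91 and 6.34 on urethra replicates 1, 2 and 6, and 7.07, 8.03, 9.47 and 8.55 on sinus replicates 1, 2, 6 and 7. Urethra replicate 1 was at the floor, and sinus replicates 2, 6 and 7 were the 3 highest of the region arrays. Urethra minus sinus was -1.65 (SE 0.63, 95% interval -3.05 to -0.24), the largest of the 9 members in that comparison, with an adjusted p of 0.413 and an overlap of the groups. Bladder minus sinus was -0.83 (adjusted p = 0.512) and bladder minus urethra 0.82 (adjusted p = 0.460).

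Wnt11, expressed at the tips of the branching ureteric tree in the kidney, differed little but evenly. Its log2 intensity was 9.63, 8.90 and 9.15 on bladder replicates 2, 6 and 8. It was 10.09, 10.23 and 9.67 on urethra replicates 1, 2 and 6, and 10.77, 10.15, 9.77 and 9.88 on sinus replicates 1, 2, 6 and 7. The bladder arrays lay below all others, with bladder replicate 2 within 0.1 of the lowest urethra array. Bladder minus sinus was -0.92 (SE 0.33, 95% interval -1.66 to -0.17, adjusted p = 0.197) and bladder minus urethra -0.77 (SE 0.36, adjusted p = 0.217), and neither was called.

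**Figure D2:**
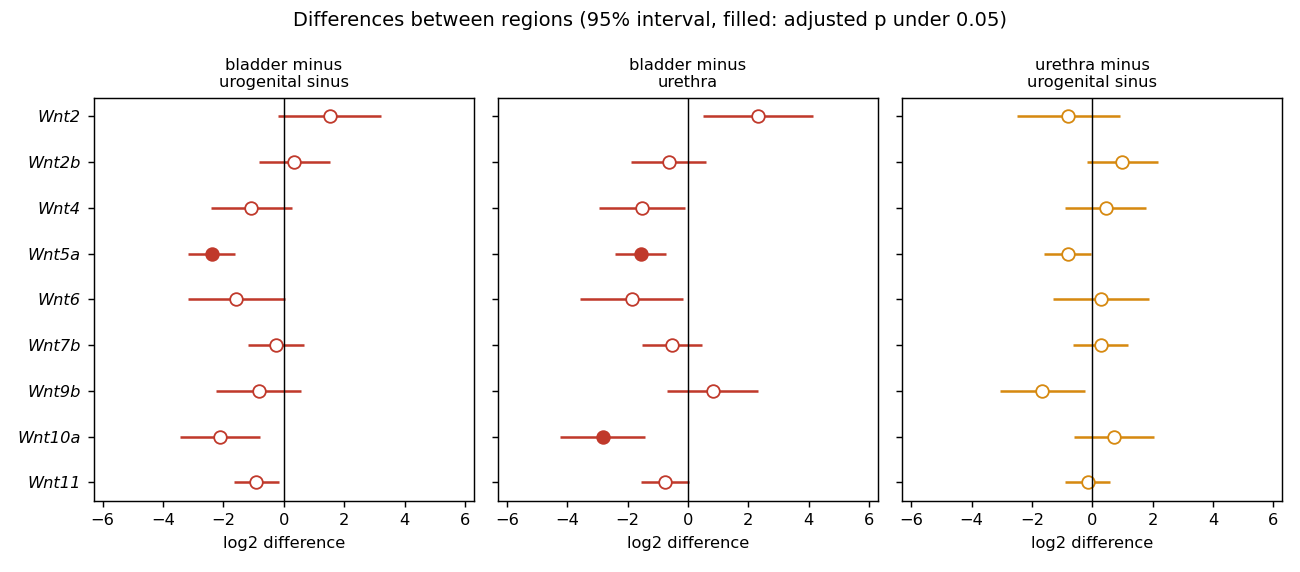
Log2 differences (x axis) of the 9 Wnt ligands (y axis) for bladder minus urogenital sinus, bladder minus urethra and urethra minus urogenital sinus; points are estimates, bars are 95% intervals and filled points have an adjusted p under 0.05; Wnt2b was under the filter on every sinus array, so its 2 sinus differences are not sized. The filled points are Wnt5a in both bladder comparisons, at -2.39 and -1.57, and Wnt10a against the urethra, at -2.82.

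Across the family, 1 of 9 members fell in the bladder relative to the urogenital sinus and 0 rose, where 2.54% of all genes were called and 1.73% were called lower. The differences had a median of -0.92 over the members and -0.19 over all genes, and 7 of 9 members were below 0, of which Wnt7b turned to 0.25 under quantile normalization and 0.33 with median centring. The groups did not overlap for Wnt5a, Wnt6, Wnt10a and Wnt11, which is 4 of 9 members, beside 17.9% of all genes. Bladder against urethra gave 2 of 9 members lower and 0 higher, where 4.33% of all genes were called and 2.62% called lower. The median was -0.77 over the members and -0.25 over all genes. There 5 of 9 members did not overlap (Wnt5a, Wnt6, Wnt10a and Wnt11 lower, Wnt2 higher), beside 34.5% of all genes. These comparisons use the same 3 bladder arrays, so their values are not separate evidence.

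Urethra against urogenital sinus gave 0 of 9 members in limma at an adjusted p under 0.05, where 2 genes, or 0.0133% of all genes, were called. At an unadjusted p under 0.05 there were 2 members, Wnt5a and Wnt9b, both lower in the urethra, as were 4.71% of all genes at that threshold. A fit with array weights called Wnt9b alone of the members, where 664 of all genes were called. The members' median was 0.28 and that of all genes 0.05. On the probe sets used, Wnt5a was the 1 member whose groups did not overlap, beside 8.22% of all genes. A test of any difference among the 3 regions gave an adjusted p of 0.0197 for Wnt5a and 0.0661 for Wnt10a, and from 0.235 for Wnt2 to 0.677 for Wnt7b for the other 7 members.

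Ordered by region mean, Wnt5a ran from urogenital sinus through urethra to bladder, and Wnt2 from bladder through sinus to urethra. Wnt4, Wnt6, Wnt7b and Wnt10a ran from urethra through sinus to bladder. On the probe sets used this order rests on urethra replicate 1 for 3 of them: without it urethra minus sinus was -0.082 for Wnt4, -0.54 for Wnt6 and -0.048 for Wnt7b. On the second Wnt4 probe set, urethra replicates 2 and 6 (10.44 and 10.05) both exceeded the sinus mean of 9.81. On the second Wnt6 probe set they were 7.81 and 9.95, on either side of the sinus mean of 8.68. Wnt11 ran from sinus through urethra to bladder. Of neighbours in these orders, Wnt5a in urethra and bladder differed past the threshold. For Wnt4, Wnt6, Wnt7b, Wnt10a and Wnt11 the urethra and sinus arrays overlapped, and for Wnt2 the bladder and sinus arrays did.

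The titles of the samples are written in 3 styles, and the labels do not say whether these mark batches. Within the style of bladder replicates 2 and 6 and sinus replicates 1, 2 and 6, bladder minus sinus was -2.67 for Wnt5a, -2.59 for Wnt10a and 1.42 for Wnt2. Within the style of bladder replicate 8 and sinus replicate 7 these differences were -1.91, -1.05 and 2.20. Each kept its direction in both, without a test. The 3 urethra arrays share a style with no other region array, so style and region cannot be told apart within the region arrays; with style as a block linked through the reference arrays, bladder minus urethra was -2.57 for Wnt5a (adjusted p = 0.190) and -3.20 for Wnt10a (adjusted p = 0.262).

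Wnt4, Wnt5a and Wnt6 were each measured by more than 1 probe set above the filter, and these gave the same direction in both bladder comparisons. Here p was adjusted over all 33125 probe sets that passed the filter, whatever their gene symbols and without the controls. Of the 4 for Wnt5a, 3 gave bladder minus sinus differences from -2.84 to -2.28. All 3 were called (adjusted p = 0.0176 for 1436791_at, 0.0370 for 1448818_at and 0.0283 for 1437673_at). The remaining one, 1456976_at, was under the filter on every bladder array, and so was at least 2.05-fold lower there than in the sinus, and was not called (0.131). Bladder minus urethra ranged from -1.86 to -1.42 over the 3 brighter Wnt5a probe sets, and 1456976_at was at least 1.12-fold lower. Adjusted p ran from 0.0548 to 0.312 over the 4, with 0 called. On 1448818_at bladder replicate 6 (9.90) lay above urethra replicate 1 (9.69). Urethra replicate 1 (11.09) lay above sinus replicate 1 (10.91) on 1437673_at. On 1456976_at urethra replicate 2 (8.48) lay above sinus replicate 2 (7.79). The weaker Wnt4 probe set, 1441687_at, differed more than the one used, by -2.44 against the urethra (adjusted p = 0.0691) and -1.80 against the sinus (0.177). The second Wnt6 probe set, 1435980_x_at, was under the filter on every bladder array, and so was at least 3.83-fold lower in the bladder than in the urethra (0.0619) and at least 2.45-fold lower than in the sinus (0.140); neither was called, and its suffix marks probes that can bind related transcripts. The second probe sets of Wnt7b and Wnt9b were above the filter on 0 and 1 of the 13 arrays and were not kept.

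**Figure D3:**
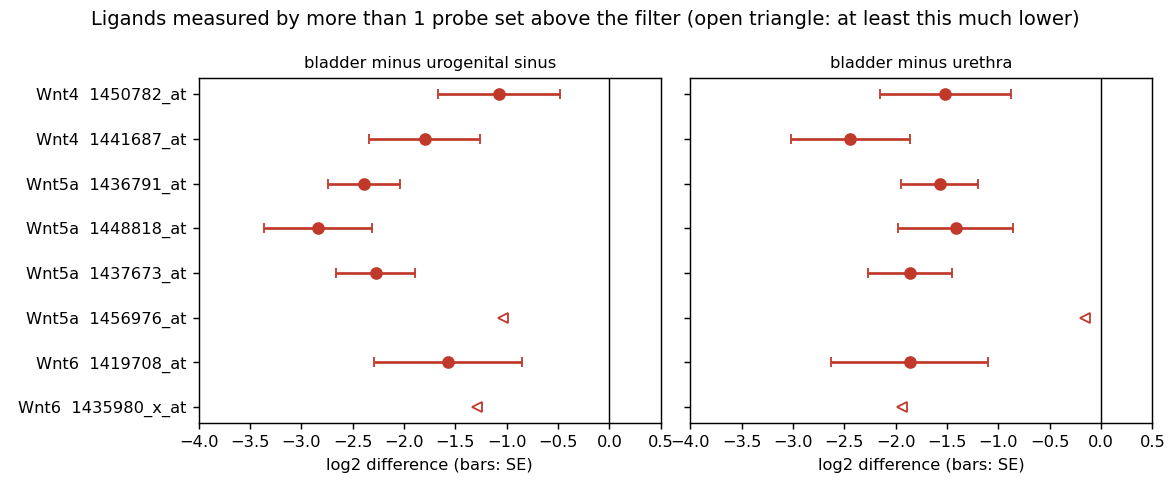
Log2 differences (x axis) for each probe set above the filter of Wnt4, Wnt5a and Wnt6 (y axis), bladder minus urogenital sinus on the left and bladder minus urethra on the right; filled points are estimates with SE bars, and open triangles are the smallest fall that the filter level allows for the 2 probe sets under the filter on every bladder array. All 8 probe sets lie below 0 in both panels, with the 3 Wnt5a estimates between -2.84 and -2.28 against the sinus.

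On the probe sets used, Wnt4, Wnt6, Wnt7b and Wnt10a were each highest on urethra replicate 1 among all region arrays. The second Wnt4 probe set, 1441687_at, was higher on sinus replicate 1 (10.94) than on urethra replicate 1 (10.86). Urethra replicate 1 also had the highest mean over 14 epithelial markers, 12.88, beside 11.86 and 12.48 on urethra replicates 2 and 6. The epithelial mean ranged from 10.82 to 11.66 over the bladder arrays, from 11.86 to 12.88 over the urethra arrays and from 11.41 to 12.34 over the sinus arrays. All 14 markers were above the floor on every region array. In the bladder 1 of 14 was called lower than in the sinus (Krt5), where 1.73% of all genes were. Against the urethra 2 of 14 were called lower (Krt5 and Krt15), where 2.62% of all genes were. Uroplakins of the same list lay the other way without a call: Upk1b averaged 13.07 in the bladder, 11.82 in the urethra and 11.65 in the sinus, and Upk3a averaged 10.63, 8.84 and 8.92 in that order. In a bulk sample, fewer cells of a type and less RNA per cell cannot be told apart, and the part of the epithelium in these 4 ligands was not tested.

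**Figure D4:**
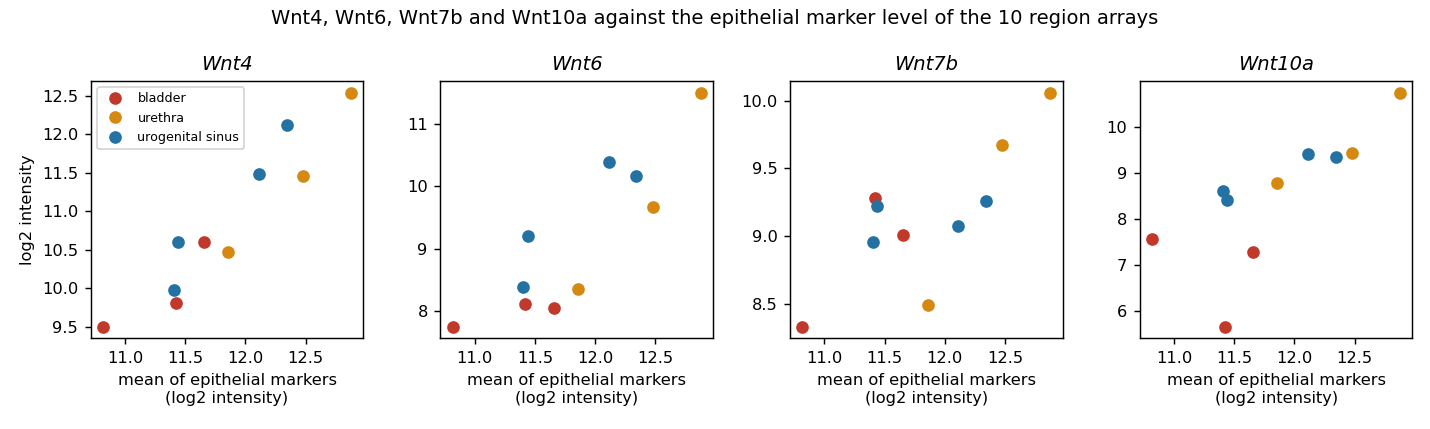
Log2 intensity of Wnt4, Wnt6, Wnt7b and Wnt10a (y axis, 1 panel each) against the mean log2 intensity of 14 epithelial markers (x axis) on the 10 region arrays; each point is an array, coloured by region. Urethra replicate 1, with the highest epithelial mean of 12.88, is the highest array in each panel.

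Other marker lists also held genes that differed between regions, in either direction. Of all 15019 genes, 122 were called higher and 260 lower in the bladder than in the sinus. Against the urethra these numbers were 257 and 394. The mean over 9 markers of genital tubercle and surface ectoderm was 8.68 to 9.95 on bladder arrays, 11.56 to 12.07 on urethra arrays and 11.08 to 11.43 on sinus arrays, with 5 of 9 markers called lower in the bladder than in the sinus and 7 of 9 lower than in the urethra. Of these, Sall1 was at the floor on 2 bladder arrays and Six2 on 1. The mean over 5 markers of nephric and paramesonephric duct was 7.78 to 8.68 on bladder arrays, 8.77 to 9.38 on urethra arrays and 9.35 to 10.36 on sinus arrays, where 1 of 5 (Gata3) was lower in the bladder in both comparisons and Emx2 was at the floor on 2 bladder arrays and 1 urethra array. The smooth muscle list checked the dissection: its mean over 8 markers was 10.82 to 11.39 on bladder arrays, 10.31 to 11.32 on urethra arrays and 8.01 to 9.61 on sinus arrays, and 5 of 8 (Actg2, Acta2, Myh11, Tagln and Cnn1) were higher in the bladder than in the sinus, Actg2 by 4.41 (adjusted p = 0.00551). Des, the muscle intermediate filament, lay the other way, under the filter on every bladder array and at least 2.41-fold lower than in the sinus, without a call (adjusted p = 0.0740). In the urethra, the other fluorescent region, 0 of 8 were called against the sinus, where 2 genes, or 0.0133% of all genes, were called. The 8 differences there had a median of 2.23, beside 0.05 over all genes. Neuron and glia markers, 6 in number, averaged 7.02 to 8.52 on bladder arrays, 6.92 to 9.43 on urethra arrays and 7.31 to 11.47 on sinus arrays, with 1 of 6 (Elavl3) lower in the bladder than in the sinus. Of 8 mesenchymal markers Lum was higher in the bladder in both comparisons and Twist1 lower than in the urethra, and of 6 endothelial markers Kdr was higher in the bladder than in the urethra. The part of these tissues in the Wnt ligand differences was not tested.

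Among receptors that bind these ligands, those called between regions were lower in the bladder, and those called against the newborn reference were higher. The calls of the pathway and marker lists come from the main fits alone and were not followed under other settings. With arrays centred on their medians, 80.1% of all calls were higher in bladder minus sinus and 75.8% in bladder minus urethra. As deposited these shares were 31.9% and 39.5%. Of 16 receptors and co-receptors, 15 were tested. Against the urogenital sinus, where 2.54% of all genes were called, 2 fell in the bladder and 0 rose: Ror2, the main Wnt5a receptor, by 2.14 (adjusted p = 0.0115), and Fzd3 by 1.17 (adjusted p = 0.0445). Against the urethra, where 4.33% of all genes were called, 3 fell and 0 rose, Ror2 by 2.37 (adjusted p = 0.00756), its relative Ror1 by 1.91 (0.00958) and Fzd7 by 1.25 (0.00756). The list's median was -0.59 against the sinus, where that of all genes was -0.19, and -0.99 against the urethra, where that of all genes was -0.25. Against the newborn reference 3 rose in the bladder and 0 fell, where 17% of all genes were called: the Wnt receptors Fzd1 by 1.57 (adjusted p = 0.00969) and Fzd2 by 1.98 (0.0213), and Ror1 by 1.46 (0.0343). This was not particular to the bladder, as 5 rose and 0 fell in the sinus, and 4 rose and 0 fell in the urethra. Of all 15019 genes, 874 were called higher than the reference in the bladder, 694 in the sinus and 655 in the urethra.

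Of 8 agonists outside the Wnt family, 6 were tested, and the same 2 were called in both comparisons. Of all genes, 2.54% were called against the sinus (1.73% lower) and 4.33% against the urethra (2.62% lower). Rspo2, an R-spondin that raises the response to Wnt, fell in the bladder by 3.29 relative to the sinus (adjusted p = 0.00584) and by 2.53 relative to the urethra (0.0163). Ndp, a Frizzled ligand unrelated in sequence to Wnt, fell by 1.68 (0.0325) and by 1.99 (0.0171). Of 13 secreted antagonists, 11 were tested. Dkk1, which blocks Lrp co-receptors, fell in the bladder by 2.10 relative to the sinus (adjusted p = 0.0281). Against the urethra Sfrp1, a soluble Frizzled-like protein that binds Wnt, rose by 1.79 (0.0465), and its relative Sfrp4 was at least 1.75-fold lower in the bladder (0.0376).

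Among 14 transcription factors and targets of beta-catenin signalling, 13 were tested. Apcdd1, a target that damps Wnt signalling, fell in the bladder by 2.05 relative to the sinus (adjusted p = 0.0152), and no other member of the list was called there. In that comparison 2.54% of all genes were called and 1.73% called lower. Against the urethra, where 4.33% of all genes were called and 2.62% called lower, 4 fell and 0 rose. These were Apcdd1 by 1.71 (0.0281), Axin2, a widely used target, by 1.24 (0.0356), Tnfrsf19 by 1.18 (0.0486), and Rnf43, which was at least 2.35-fold lower (0.0473). Of 14 cytoplasmic and planar polarity components, 13 were tested, with 0 called against the sinus and 1, Celsr1, lower by a difference of -2.40 against the urethra (0.0265). Both tested secretion genes, Porcn among them, and the 5 tested of the 10 other Wnt ligands (Wnt3a, Wnt5b, Wnt7a, Wnt8b and Wnt9a) gave 0 calls in either comparison. Urethra against sinus gave 0 calls in each of these lists, where 2 of all genes were called. Wnt1, Wnt3, Wnt8a, Wnt10b and Wnt16 did not pass the filter.

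Genes whose pattern over the 10 region arrays was most like that of a ligand were found by the mean absolute difference of their centred log2 values, for the 6 members whose region means spanned at least 1. For Wnt5a these were Nts, at 0.20 per array, Eya4 at 0.26 and Notum, a secreted enzyme that inactivates Wnt proteins, at 0.28, against a median of 0.97 over all genes. For Wnt2 they were Rarres1 at 0.39, Gata5 at 0.43 and Slc14a1, a urea transporter, at 0.43, against a median of 1.28. For Wnt6 they were Porcn, the enzyme that adds the lipid Wnt proteins need for secretion, at 0.20, Top3b at 0.31 and Ccpg1os at 0.32, against a median of 1.02. Wnt10a was nearest to Tnk1 at 0.28, Bmp7 at 0.32 and Entpd3 at 0.35, Wnt4 to Slc27a4 at 0.18 and Bmf at 0.21, and Wnt9b to Zfp92 at 0.36 and Prdm16 at 0.37. These likenesses are descriptions over 10 arrays that share amplification and scaling. Low signal limits some of them. The bladder means of Nts (7.02), Notum (6.55), Porcn (7.18), Ccpg1os (6.79) and Tnk1 (6.55) were under the filter level of 7.39. So were the means of Rarres1 in the sinus (7.35) and urethra (6.63), and those of Zfp92 in every region.

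**Figure D5:**
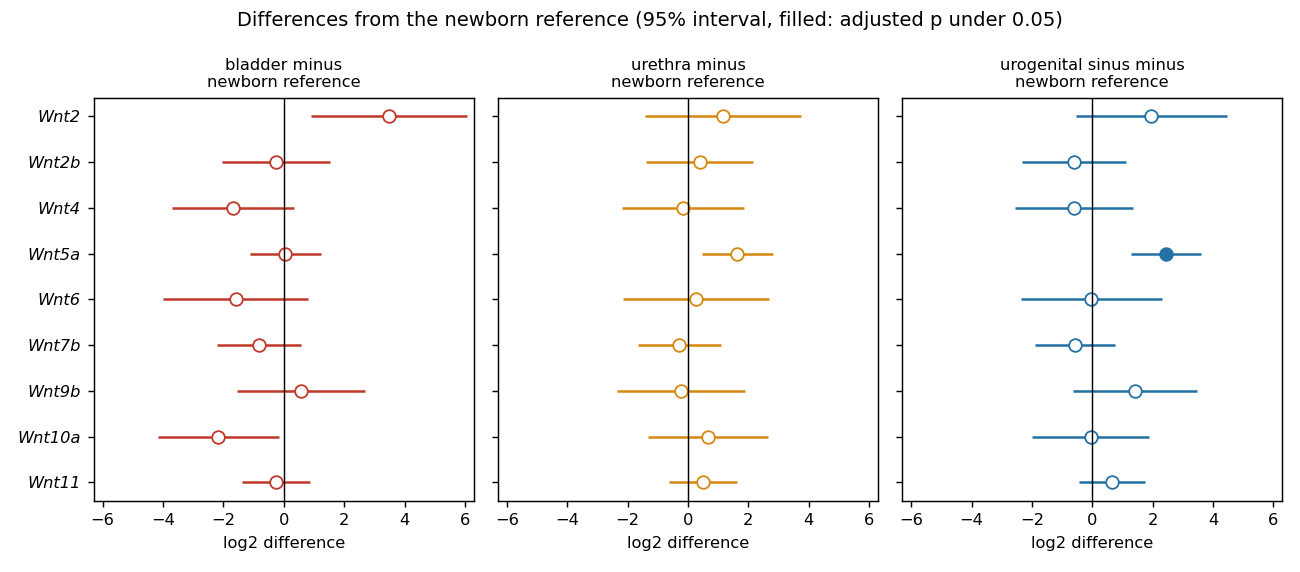
Log2 differences (x axis) of the 9 Wnt ligands (y axis) for bladder, urethra and urogenital sinus, each minus the newborn reference; points are estimates, bars are 95% intervals and filled points have an adjusted p under 0.05. The 1 filled point is Wnt5a in the urogenital sinus at 2.44, and Wnt2 in the bladder stands at 3.49 with a wide interval.

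Against the newborn reference, which holds the RNA of a whole animal, Wnt5a was higher in the urogenital sinus, and no other member was called in any region. On the reference arrays Wnt5a had 11.75, 10.61 and 10.15, and Wnt2 averaged 9.45 ± 0.42 (SD, n = 3) with 9.83 as its highest array. Every sinus array was above every reference array for both genes, and every bladder array was above them for Wnt2, while the bladder and reference arrays overlapped for Wnt5a. Wnt5a rose in the urogenital sinus relative to the reference by 2.44 (SE 0.51, 95% interval 1.30 to 3.59, 5.44-fold, adjusted p = 0.0107), a call lost with arrays centred on their medians (2.70, adjusted p = 0.0770). Urethra minus reference was 1.63 for Wnt5a (SE 0.53, adjusted p = 0.0744), not called here but called with quantile normalization (1.72, 0.0478) and array weights (1.59, 0.0170). It also passed with the reference arrays entered one by one (0.0119), which counts repeats of 1 kind of pooled RNA as replicates. Bladder minus reference was 0.06 for Wnt5a (95% interval -1.12 to 1.24, adjusted p = 0.953).

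Wnt2 exceeded the reference by 3.49 in the bladder (SE 1.16, 95% interval 0.90 to 6.08, 11.2-fold), which with an adjusted p of 0.0676 was not called. It was called without sinus replicate 1 (SE 0.86, adjusted p = 0.0209), with arrays centred on their medians (4.33, 0.0309), without reference replicate 1 (3.68, adjusted p = 0.0489) and with array weights (3.55, 0.00206). It also passed with the reference arrays entered one by one (3.49, 0.00155) and with the title style block (3.31, 0.00642), which enters them so as well. Both settings count repeats of 1 kind of pooled RNA as replicates, so their p-values can be too small. Sinus minus reference was 1.96 for Wnt2 (adjusted p = 0.324) and urethra minus reference 1.16 (adjusted p = 0.601). Wnt10a was 9.15, 9.10 and 8.72 on the reference arrays, and bladder minus reference was -2.16 (SE 0.89, adjusted p = 0.130), with no overlap.

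In counts, 0 of 9 members were called in the bladder against the reference in limma, where 17% of all genes were; at an unadjusted p under 0.05 there were 2, Wnt2 higher and Wnt10a lower, beside 31.3% of all genes. The groups did not overlap for Wnt2, Wnt4, Wnt6, Wnt7b and Wnt10a, beside 51% of all genes. In the urethra 0 of 9 were called, where 13.2% of all genes were, and Wnt5a alone passed an unadjusted p under 0.05, where 11.7% of all genes were higher at that threshold. Wnt5a was also the 1 member without overlap, beside 40.9% of all genes. In the urogenital sinus 1 of 9 rose and 0 fell, where 13.8% of all genes were called and 4.62% called higher; Wnt2, Wnt5a, Wnt7b and Wnt11 did not overlap, beside 32% of all genes. The 3 comparisons share the reference arrays, whose mean was entered as a single sample with the spread of the region arrays.

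The 5 stage 22 arrays were set against the 5 stage 21 arrays in a fit that also held region. In limma 0 of 9 members and 0% of all genes were called, while 25.5% of all genes had an unadjusted p under 0.05, and a fit with array weights called 1421 genes but 0 members. Wnt2 was lower at stage 22 by a difference of -1.26 (unadjusted p = 0.0441, adjusted p = 0.185) and Wnt11 by -0.58 (unadjusted p = 0.0215, adjusted p = 0.133), where 15.3% of all genes were lower at an unadjusted p under 0.05. Wnt5a differed by 0.34 (95% interval -0.30 to 0.99, adjusted p = 0.485). Within the bladder, where Wnt2 was 12.92 and 12.28 on the stage 22 arrays and 13.61 on the stage 21 array, and within the sinus, where it was 10.70 and 10.08 at stage 22 and 13.35 and 11.49 at stage 21, the stage 22 arrays were the lower ones; in the urethra the stage 22 array, at 10.37, lay between the stage 21 arrays at 11.82 and 9.64.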

How the data were processed

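Total RNA from 13 samples went through 2 rounds of amplification and biotin labelling before hybridization to 1 array each, per the labels' protocols. The authors deposited linear signal intensity for 45101 probe sets. GCOS, the Affymetrix array software, is named per the submitters' processing notes; its version and settings are not given here. Trimming 2% at each end, the mean of the deposited intensity was 1500.01 on all 13 arrays, so the arrays were used as scaled; their medians ran from 142.4 to 237.7 in the bladder, 221.3 to 378.2 in the urethra, 259.4 to 388.7 in the sinus and 277.9 to 454.6 in the reference. Detection calls were not analysed here, and the number of arrays limits the precision. Amplification in 2 rounds shortens transcripts towards the 3′ end, so a probe set far from that end can lose signal unevenly between arrays.

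From the deposited intensity, values were floored at the 20th percentile (50.23) and turned to log2 here. Of 45101 probe sets, 64 were controls, 34945 carried 1 gene symbol, 932 several and 9160 none in the platform annotation, which can be old. Probe sets with 1 symbol were kept where at least 3 arrays exceeded the 40th percentile (167.76), which left 14 of the 16 member probe sets, and the brightest stood for each gene. The tests used limma 3.58.1 (R 4.3.3), with lmFit and a trended eBayes. The 10 region arrays shared 1 fit with 7 residual degrees of freedom; for the reference comparisons the mean of the 3 reference arrays was added as 1 sample. All p-values are two-sided. A fold against a group wholly under the filter is a lower bound against the filter level, written "at least". The labels and files state no genome build for probe sets.

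The 9 members, the pathway lists and the marker lists were chosen with earlier results of these data known. The genes named are the members, the called genes of each pathway and marker list, and up to 3 genes nearest in pattern to each member. Alternatives covered scaling, floor, filter, probe set choice, trend, array weights, the arrays fitted, blocks and each array left out in turn. Deviations of same-numbered arrays of different regions correlated over 0.1 in 5 of 7 pairs (range -0.168 to 0.362). Pairs of arrays with different numbers ranged from -0.513 to 0.413. The labels do not say whether same-numbered arrays share an animal, and these correlations cannot decide it. The main fits left the numbers out, and a block by number was run as an alternative. No 2 arrays were identical.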

Additional observations from a re-analysis of the deposited data

How the results depend on the processing

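Wnt5a stayed lower in the bladder than in the sinus under all alternatives that refit its gene value (-2.77 to -1.80) and was called in each but 3: median centring and the fits without bladder replicate 2 or 6. Of the members' differences under settings other than leaving out 1 array, 594 kept direction and side of the threshold, 24 passed it newly, 18 lost it and 39 changed sign; with 1 array left out these numbers were 651, 6, 18 and 36. All sign changes were in differences that were not called, and the cause of the changes in calls was not tested.

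Counts of the 9 members called were 1 (bladder minus sinus), 0 (urethra minus sinus), 2 (bladder minus urethra), 0, 1 and 0 (bladder, sinus and urethra minus reference) and 0 (stage). Bladder minus urethra gave 0 under quantile normalization, median centring, no filter, only the groups compared and the title style block, and 1 with a floor at the 40th percentile and without the intensity trend. Bladder minus sinus gave 0 with median centring. Array weights gave 4 for bladder minus sinus, 3 for bladder minus urethra, 1 for urethra minus sinus, and 2, 2 and 1 for bladder, sinus and urethra minus reference. In the same order, array weights called 2668, 1873, 664, 5791, 5270 and 3867 of all 15019 genes. Bladder minus reference gave 1 with median centring, 3 with reference arrays entered one by one and 2 with the style block, where 2102, 5390 and 4249 of all genes were called. The style block also entered the reference arrays one by one, and both settings count repeats of 1 kind of pooled RNA as replicates. Sinus minus reference gave 0 with median centring and 2 with reference arrays one by one, where 1324 and 4327 of all genes were called. Urethra minus reference gave 1 under quantile normalization, the mean of kept probe sets, reference arrays one by one and the style block, where 2084, 1887, 4196 and 2997 of all genes were called. Without both arrays numbered 1, added after seeing the data, bladder minus sinus gave 2, bladder minus urethra 1 and bladder minus reference 1. With 1 array left out the counts ran 0 to 1 for bladder minus sinus (0 without bladder replicate 2 or 6), 0 to 3 for bladder minus urethra (3 without sinus replicate 1), and 0 to 1 for bladder and for urethra minus reference.

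With the number in the title as a replicate block, 1 member was called for bladder minus sinus (Wnt5a, -2.54, adjusted p = 0.0368), 0 for urethra minus sinus and 1 for bladder minus urethra (Wnt2, 3.33, adjusted p = 0.0427, in place of Wnt5a and Wnt10a). Whether the numbers pair the samples is not known, and correlations of deviations, which did not exceed 0.1 in 2 of 7 pairs, cannot decide it. Under the block Wnt7b turned to 0.094 in bladder minus sinus and Wnt6 to -0.090 in urethra minus sinus.

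Over all genes, calls numbered 382 for bladder minus sinus (132 with the replicate block, 2668 with array weights, 46 to 647 with 1 array left out), 651 for bladder minus urethra (55 with the style block, 1873 with array weights, 111 to 1292), 2 for urethra minus sinus (0 to 664; 0 to 22), and 2557, 2076 and 1987 for bladder, sinus and urethra minus reference (up to 5791, 5270 and 4196 and down to 2102, 1324 and 1304 under other settings; 1776 to 3411, 1641 to 2731 and 1575 to 2523 with 1 array left out). The higher share of calls was 31.9% for bladder minus sinus (51% under quantile normalization, 80.1% with median centring), 39.5% for bladder minus urethra (56.6%, 75.8%) and 34.2% for bladder minus reference (46.1%, 53.9%).

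Sign changes under quantile normalization were Wnt7b 0.25 in bladder minus sinus, Wnt2b 0.52 and Wnt11 0.33 in bladder minus reference, Wnt6 0.16 and Wnt10a 0.20 in sinus minus reference, and Wnt2b 0.023 between stages. Median centring gave Wnt7b 0.33 in bladder minus sinus, Wnt2b 0.58, Wnt7b 0.024 and Wnt11 0.58 in bladder minus reference, Wnt6 0.23 and Wnt10a 0.20 in sinus minus reference, Wnt4 0.21 and Wnt7b 0.087 in urethra minus reference, and Wnt2b 0.069 between stages. A floor at the 40th percentile gave Wnt9b -0.042 in bladder minus urethra and -0.11 in bladder minus reference. The mean of kept probe sets gave Wnt5a -0.11 in bladder minus reference and Wnt6 0.15 in sinus minus reference, and array weights gave Wnt11 0.071 in urethra minus sinus and Wnt5a -0.10 in bladder minus reference. The style block gave Wnt5a 0.16, Wnt6 -0.46, Wnt7b -0.20 and Wnt9b 0.18 in urethra minus sinus, Wnt9b -1.01 in bladder minus urethra, Wnt5a -0.25 and Wnt9b -0.031 in bladder minus reference, Wnt6 0.14 in sinus minus reference, and Wnt6 -0.32 and Wnt9b 0.97 in urethra minus reference. Without both arrays numbered 1, Wnt6 was -0.25, Wnt7b -0.066 and Wnt11 0.016 in urethra minus sinus, Wnt6 -0.56 and Wnt9b 0.25 in urethra minus reference, and Wnt9b -0.085 between stages.

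With 1 array left out, ranges that crossed 0 were Wnt2b -0.076 to 0.60 and Wnt7b -0.46 to 0.016 in bladder minus sinus; Wnt4 -0.082 to 0.95, Wnt6 -0.54 to 1.04, Wnt7b -0.048 to 0.74 and Wnt11 -0.27 to 0.062 in urethra minus sinus; Wnt2b -0.69 to 0.16, Wnt5a -0.32 to 0.51 and Wnt9b -0.021 to 1.20 in bladder minus reference; Wnt6 -0.35 to 0.36 and Wnt10a -0.21 to 0.13 in sinus minus reference. In urethra minus reference they were Wnt2b -0.059 to 0.91, Wnt4 -0.69 to 0.35, Wnt6 -0.56 to 1.01, Wnt7b -0.61 to 0.17 and Wnt9b -0.88 to 0.38, and between stages Wnt2b -0.39 to 0.39 and Wnt7b -0.19 to 0.17. Signal near the floor limits Wnt2b, Wnt9b and, in the bladder, Wnt10a.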
